A study of Bos taurus and Ovis aries and Capra hircus with 18 samples.

Results

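The 8 genes described here encode carriers and channels that move chloride or bicarbonate across membranes: SLC12A5, SLC12A2, CLCN1, CLCN2, CLCN3, CLCN4, SLC4A10 and SLC4A4. They were taken by name. The cattle gene was identified by its position, and its sheep and goat partners by exon structure and gene order. All 8 were found in each species, among 13430 genes matched in the 3 species and 27607 genes counted in cattle. Read counts came from adult brain and adult muscle of cattle (Bos taurus), sheep (Ovis aries) and goat (Capra hircus), with 3 libraries, A, B and C, in each of the 6 groups and 18 in all. No group carried a treatment or a modified allele. The region of brain and the kind of muscle are not stated, and nothing says that the letters stand for separate animals, so the p-values below measure the spread between libraries, which may be technical.

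Chloride gradients set whether opening an anion channel quiets or excites a cell. In neurons, SLC12A5 (KCC2) carries potassium and chloride out of the cell, while SLC12A2 (NKCC1) carries sodium, potassium and chloride in. Opening of GABA-gated channels in mature neurons is inhibitory where outward transport of chloride prevails. In skeletal muscle, the channel CLCN1 (ClC-1) carries the large resting chloride conductance that steadies the membrane after a twitch, and its loss causes myotonia. CLCN2 is a second plasma membrane channel of the same CLC family, whereas CLCN3 and CLCN4 are exchangers that swap chloride for protons in endosomal membranes. SLC4A10 and SLC4A4 bring bicarbonate into cells together with sodium and so set the pH inside and around neurons and glia, SLC4A10 mainly in neurons and choroid plexus and SLC4A4 (NBCe1) mainly in astrocytes.

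In cattle the genes lie, in the coordinates of the count files (ARS-UCD1.2 per the submitters' processing notes), on chromosome 13 from 74766798 to 74795844 (SLC12A5), chromosome 7 from 25761272 to 25853058 (SLC12A2), chromosome 4 from 106700966 to 106738430 (CLCN1) and chromosome 1 from 82830348 to 82844401 (CLCN2). CLCN3 lies on chromosome 8 from 1549320 to 1637689, CLCN4 on chromosome X from 132548507 to 132617488, SLC4A10 on chromosome 2 from 34473422 to 34723194 and SLC4A4 on chromosome 6 from 86381836 to 86809131. Their partners shared 9 to 24 exon lengths with the cattle gene. All counts are summed over the exons of a gene model. The sheep model of SLC4A4 is partial, with 12 distinct exons and 1941 exonic bases against 5025 in cattle and 8865 in goat. In goat, CLCN4 sits on an unplaced scaffold, where 1 of its 10 neighbours lay beside it.

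Levels below are counts scaled to library size (CPM) and divided by exonic length (the unit CPM per kb below), on a common trimmed-mean (TMM) scale over the matched genes. Differences are log2 estimates with standard errors (SE) from edgeR's quasi-likelihood test. A gene was called where the Benjamini-Hochberg (BH) adjusted p over all genes tested was below 0.05 and the log2 difference was at least 1 in size. Library totals ran from 20730803 to 58514630 counts. Sheep brain library C stood apart: its mean Spearman correlation with the other 2 sheep brain libraries was 0.831, against 0.910 and 0.911 for A and B and 0.948 to 0.989 in the other 5 groups. Neuron markers (9 matched) summed to 2445 to 4206 CPM per kb in brain and to 7.67 to 36.9 in muscle, and skeletal muscle markers (10 matched) to 7.54 to 33.4 in brain and at least 125669 in muscle. In bulk tissue, fewer cells of a type and less RNA per cell cannot be told apart.

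**Figure D1:**
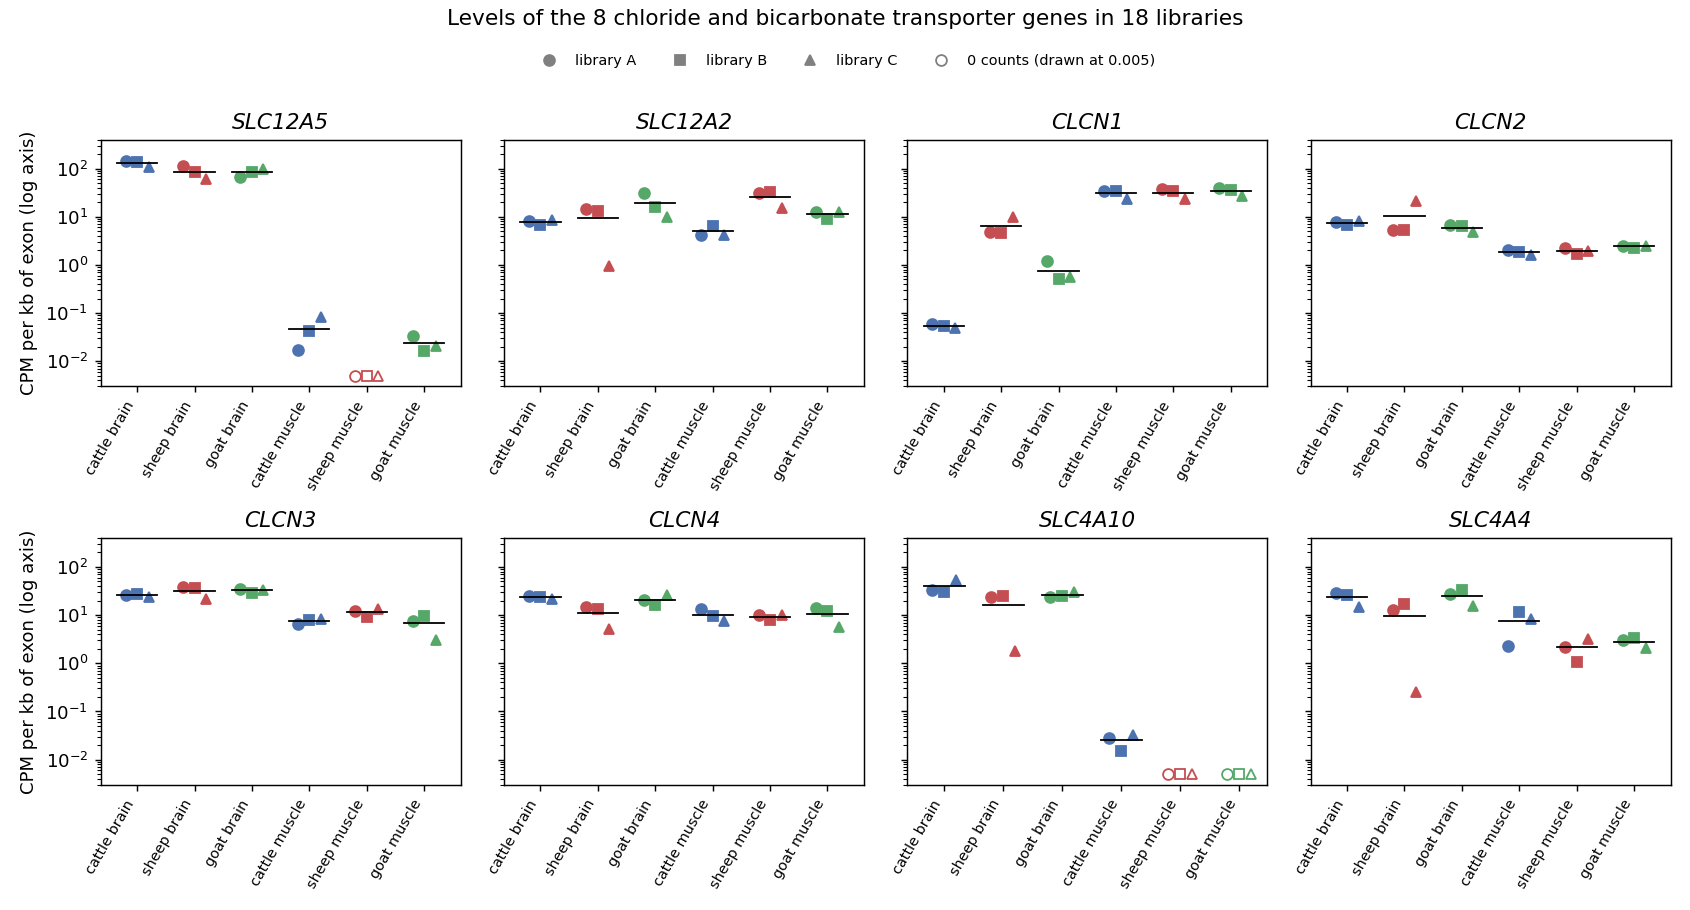
Level of each of the 8 genes in every library (CPM per kb of exon, log axis), with cattle in blue, sheep in red and goat in green, a symbol for each library letter and a bar at the group mean. SLC12A5 and SLC4A10 are at or near 0 in muscle, CLCN1 is high in muscle and differs between the brains, and sheep brain library C (red triangle) is the lowest brain library of SLC12A2, SLC4A10 and SLC4A4.

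SLC12A5 was abundant in brain of all 3 species and nearly absent from muscle. Cattle brain libraries A, B and C stood at 145.9, 136.0 and 107.0 CPM per kb, sheep brain at 111.9, 84.6 and 61.9, and goat brain at 66.5, 84.7 and 97.6. The 3 ranges overlapped in neighbouring groups, with cattle highest by its mean (129.6 ± 20.2, SD, n = 3), then sheep (86.1 ± 25.1, SD, n = 3) and goat (82.9 ± 15.6, SD, n = 3). In muscle the raw counts were 2, 6 and 11 in cattle, 0 in each sheep library, and 2, 1 and 1 in goat.

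No muscle library came near any brain library. From the levels, brain stood 2740-fold above muscle in cattle and 3526-fold in goat, both on a few muscle counts. Without cattle muscle C the cattle ratio was 4387-fold. In sheep the ratio was at least 8916-fold, taking a floor of 3 counts over the muscle group. In edgeR's fit, SLC12A5 was called higher in brain in cattle (log2 difference 11.47 ± 0.41 SE, BH adjusted p = 9.56e-08) and goat brain (11.74 ± 0.43 SE, BH adjusted p = 4.68e-07). Sheep brain was called higher as well (edgeR BH adjusted p = 0.000158), where the size is given only by the bound. The species comparisons in brain did not call it: cattle minus sheep was 0.59 ± 0.31 (SE), cattle minus goat 0.64 ± 0.31 and sheep minus goat 0.05 ± 0.31, with edgeR BH adjusted p of 0.162, 0.137 and 0.9205. The gene model holds 6119 exonic bases in cattle, 3503 in sheep and 3424 in goat. Without correction for exonic length, cattle minus goat was 1.18 and called (edgeR BH adjusted p = 0.0129).

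SLC12A2, the inward chloride carrier, was present in both tissues, with means higher in brain in cattle and goat and higher in muscle in sheep. Cattle brain stood at 8.25, 6.81 and 8.73 CPM per kb and cattle muscle at 4.25, 6.45 and 4.24. Sheep brain stood at 14.5, 12.9 and 0.950, and sheep muscle at 30.4, 32.9 and 15.1. Goat brain stood at 31.3, 16.0 and 10.1, and goat muscle at 12.6, 9.16 and 12.7. The 2 tissues did not overlap in cattle, where brain was higher, nor in sheep, where muscle was higher, and they overlapped in goat.

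None of the tissue differences of SLC12A2 was called. Brain minus muscle was 0.77 ± 0.21 (SE) in cattle, with an edgeR BH adjusted p of 0.00903 but below the log2 limit of 1. It was -1.45 ± 0.89 in sheep (edgeR BH adjusted p = 0.215) and 0.78 ± 0.38 in goat (edgeR BH adjusted p = 0.108). Over the 3 species it was 0.01 ± 0.44 (edgeR BH adjusted p = 0.989). Without sheep brain C the sheep difference was -0.91 ± 0.33 (edgeR BH adjusted p = 0.0437). Leaving out cattle muscle B raised the cattle difference to 1.0007 (edgeR BH adjusted p = 0.00161), and leaving out goat brain C the goat difference to 1.09 (edgeR BH adjusted p = 0.0264), so both then passed. Scaling by library totals alone, which moved the median gene to 1.03 in the fit of 3 species, put SLC12A2 at 1.46 in cattle, 1.52 in goat and 1.007 over the 3 species and called it higher in brain in each.

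Within muscle, SLC12A2 was lower in cattle (4.98 ± 1.27, SD, n = 3) than in sheep (26.1 ± 9.65, SD, n = 3), by -2.39 ± 0.65 (SE) on the log2 scale (edgeR BH adjusted p = 0.00909), and these 2 groups did not overlap. Goat muscle lay between them at 11.5 ± 2.03 (SD, n = 3). Its differences from cattle (cattle minus goat -1.21 ± 0.63) and from sheep (sheep minus goat 1.18 ± 0.63) were not called with all libraries (edgeR BH adjusted p = 0.140 and 0.176). They were called without sheep brain C, which lowers the spread shared by all groups of the fit, at -1.22 (edgeR BH adjusted p = 0.00699) and 1.11 (edgeR BH adjusted p = 0.0156). Cattle minus goat in brain was likewise -1.27 ± 0.63 with all libraries (edgeR BH adjusted p = 0.145) and -1.26 ± 0.34 without it (edgeR BH adjusted p = 0.00688). The SLC12A2 model holds 4393 exonic bases in cattle and 6429 in goat. With all libraries but no correction for exonic length, cattle minus goat was called in both tissues. It was -2.12 in brain (edgeR BH adjusted p = 0.0243) and -2.03 in muscle (edgeR BH adjusted p = 0.0190).

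The ratio of SLC12A5 to SLC12A2, outward over inward carrier, was computed for each brain library. It was 17.7, 19.97 and 12.3 in cattle, 7.73, 6.55 and 65.1 in sheep, and 2.12, 5.30 and 9.68 in goat. SLC12A5 exceeded SLC12A2 in all 9 brain libraries, and every cattle library lay above every goat library. Sheep brain C had the highest ratio of all, with SLC12A2 at 125 counts there against 2041 and 2110 in A and B. Two-sided exact permutation tests on the log2 ratio, 3 libraries against 3, gave p = 1 for cattle against sheep, 0.1 for cattle against goat and 0.4 for sheep against goat, where 0.1 is the smallest p possible, and 1, 0.3 and 0.6 after BH adjustment over the 3 pairs. In muscle the order was inverted, with SLC12A2 making up 98.1 to 100% of the summed level of the pair.

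Goat brain A held the most SLC12A2 and the least SLC12A5 of the goat brain libraries. It also held the most oligodendrocyte marker RNA: the 8 matched markers summed to 37267 CPM per kb there against 5877 and 6458 in B and C, with none at 0. MBP, a myelin protein gene, made up most of that sum at 33734. The neuron markers summed to 2445 in goat brain A against 3706 and 3231 in the other 2. The part of these markers in the ratio was not tested.

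CLCN1, the resting chloride channel of skeletal muscle, had overlapping levels in the 3 muscles and levels far apart in the 3 brains. Cattle muscle stood at 34.9, 33.6 and 23.4 CPM per kb, sheep muscle at 36.8, 34.1 and 23.7, and goat muscle at 39.0, 35.9 and 27.2. Their ranges overlapped, and no muscle comparison between species called the gene (cattle minus sheep -0.04 ± 0.34 SE, cattle minus goat -0.15 ± 0.34, sheep minus goat -0.11 ± 0.34).

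In brain, CLCN1 stood at 0.0579, 0.0540 and 0.0492 CPM per kb in cattle, on 10, 7 and 7 counts. Sheep brain stood at 4.84, 4.56 and 10.1, on 867, 947 and 1686 counts. Goat brain stood at 1.18, 0.513 and 0.549, on 133, 43 and 62 counts. The 3 brain groups did not overlap one another and none reached the muscle range, so the order ran from the muscles, whose neighbours did not differ beyond their spread, to sheep, goat and then cattle brain. Mean brain level came to 20.6% of the mean muscle level in sheep, 2.20% in goat and 0.175% in cattle.

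CLCN1 was called lower in brain than in muscle in every species, by -9.02 ± 0.27 (SE) in cattle, -5.46 ± 0.41 in goat and -2.28 ± 0.40 in sheep (edgeR BH adjusted p = 5.48e-08, 6.11e-06 and 0.00374). Brain also differed in each pair of species: cattle minus sheep was -6.89 ± 0.47 (edgeR BH adjusted p = 7.40e-08), cattle minus goat -3.77 ± 0.44 (edgeR BH adjusted p = 1.19e-05) and sheep minus goat 3.11 ± 0.38 (edgeR BH adjusted p = 2.38e-05). The tissue difference itself differed between species, by -6.85 ± 0.57 for cattle against sheep (edgeR BH adjusted p = 1.68e-06), -3.62 ± 0.55 for cattle against goat (edgeR BH adjusted p = 0.000581) and 3.22 ± 0.50 for sheep against goat (edgeR BH adjusted p = 0.00143). Without sheep brain C, where CLCN1 was highest, these stayed called: brain cattle minus sheep was -6.35 ± 0.38 and sheep minus goat 2.57 ± 0.30, and the sheep tissue difference -2.73 ± 0.22.

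The listed skeletal muscle markers did not stand at such heights in sheep brain. The 10 skeletal muscle markers together reached 0.00698% of their muscle level there, against 0.0148% in cattle and 0.0105% in goat, and the highest single marker reached 0.0973% in sheep, 0.0960% in cattle and 0.123% in goat. In sheep brain A, CKM and MYH1 were at 0 counts while CLCN1 had 867. The marker sum in sheep brain was 9.57, 7.54 and 33.4 in A, B and C, highest in the library where CLCN1 was highest.

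The end of the gene model differed between species. After the last exon length shared by all 3, which is 87 bases, the model went on for 1372 exonic bases in cattle, 714 in goat and 2456 in sheep. The next gene, FAM131B, lies on the opposite strand and points toward CLCN1, 2450 bases away in cattle, 1360 in sheep and 4411 in goat. FAM131B was expressed in brain, at 41.2, 36.5 and 30.9 CPM per kb in cattle, 45.4, 42.5 and 13.4 in sheep and 91.9, 66.4 and 62.5 in goat. Within sheep, the library with the most CLCN1 thus had the least FAM131B. Whether counting used strand is not stated, and whether reads from the long sheep end or from FAM131B enter the CLCN1 count was not tested.

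**Figure D2:**
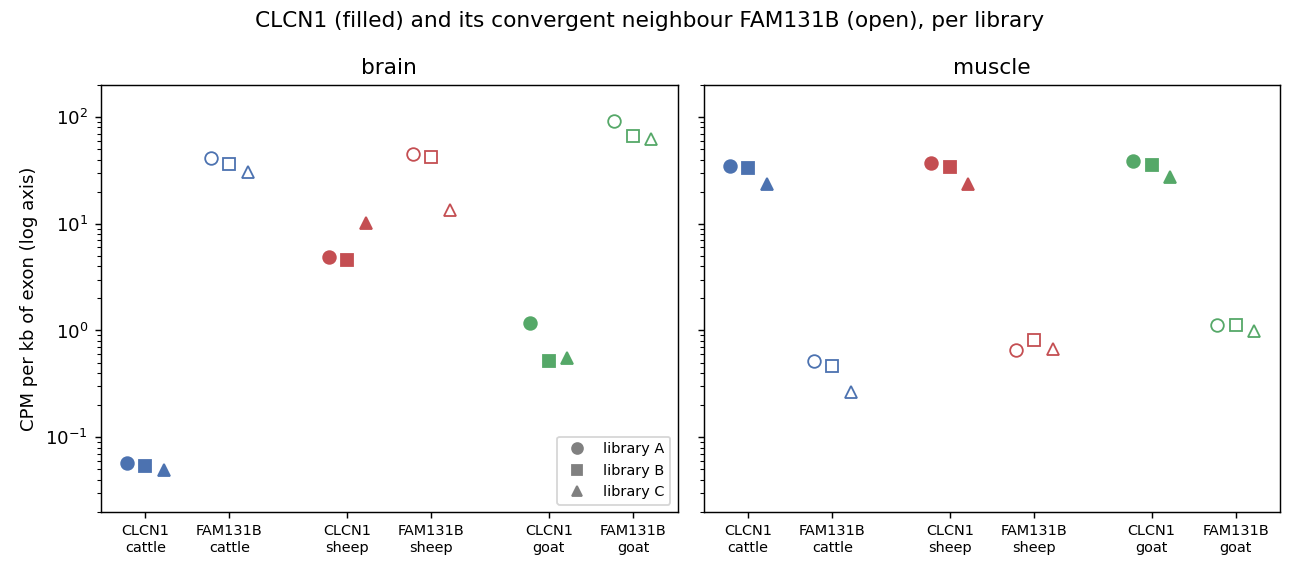
CLCN1 (filled) and its neighbour FAM131B (open) in every library of brain (left) and muscle (right), in CPM per kb of exon on a log axis. In brain CLCN1 separates into 3 levels, cattle at 0.0492 to 0.0579, goat at 0.513 to 1.18 and sheep at 4.56 to 10.1, while in muscle all libraries lie between 23.4 and 39.0.

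CLCN2, the plasma membrane channel found in neurons, glia and epithelia, was several-fold higher in brain than in muscle. Cattle brain stood at 7.69, 6.65 and 8.02 CPM per kb against 2.07, 1.85 and 1.59 in muscle. Sheep brain stood at 5.36, 5.39 and 20.7 against 2.23, 1.68 and 1.94, and goat brain at 6.64, 6.29 and 4.71 against 2.51, 2.27 and 2.49. Brain and muscle did not overlap in any species, and sheep brain C was the highest library of all.

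The brain minus muscle difference of CLCN2 was 2.12 ± 0.19 (SE) in cattle (edgeR BH adjusted p = 1.51e-05), 2.42 ± 0.61 in sheep (edgeR BH adjusted p = 0.0152) and 1.33 ± 0.28 in goat (edgeR BH adjusted p = 0.00307). The sheep call was lost when any sheep muscle library was left out (edgeR BH adjusted p = 0.0540 to 0.0658 without A, B or C), while its size stayed at 2.30 to 2.51. Without sheep brain C it remained, at a smaller size, 1.48 ± 0.18 (edgeR BH adjusted p = 0.000239). No comparison between species called CLCN2 with all libraries. Sheep minus goat in brain was 0.83 ± 0.40 (edgeR BH adjusted p = 0.148), was 1.15 without sheep brain A or without B (edgeR BH adjusted p = 0.0413 and 0.0430, called), and was -0.20 ± 0.21 without C.

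CLCN3, an endosomal exchanger also needed on synaptic vesicles, was the most abundant of the 4 CLC genes in brain by its group means. It stood at 26.6, 27.5 and 23.8 CPM per kb in cattle brain against 6.69, 7.94 and 8.37 in muscle. Sheep brain stood at 39.2, 36.3 and 21.5 against 12.1, 9.32 and 13.3, and goat brain at 35.2, 28.6 and 33.8 against 7.56, 9.65 and 3.05. All 9 brain libraries lay above all 9 muscle libraries.

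CLCN3 was called higher in brain in each species, by 1.86 ± 0.15 (SE) in cattle (edgeR BH adjusted p = 7.05e-06), 1.49 ± 0.33 in sheep (edgeR BH adjusted p = 0.00944) and 2.30 ± 0.41 in goat (edgeR BH adjusted p = 0.00101). In sheep the call was lost without sheep muscle B (1.34, edgeR BH adjusted p = 0.0519). No brain comparison between species called it, with log2 differences from -0.32 to -0.01. Sheep minus goat in muscle was 0.77 ± 0.33 (edgeR BH adjusted p = 0.0880) and became 1.13 and called without goat muscle B (edgeR BH adjusted p = 0.0307), which left goat muscle C, the lowest library at 143 counts against 421 and 565, as 1 of 2.

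CLCN4, the close relative of CLCN3, showed the smallest tissue difference of CLCN1 to CLCN4. Cattle brain stood at 24.8, 23.7 and 21.7 CPM per kb against 13.5, 9.55 and 7.72 in muscle. Sheep brain stood at 15.03, 13.4 and 5.07 against 9.92, 8.07 and 9.88, and goat brain at 20.7, 16.3 and 26.2 against 13.9, 12.3 and 5.62. The tissues overlapped in sheep, through library C, and not in cattle or goat.

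CLCN4 was called higher in brain in cattle (1.29 ± 0.21 SE, edgeR BH adjusted p = 0.000501) and in goat (1.03 ± 0.37, edgeR BH adjusted p = 0.0360). In goat the call was lost without goat brain A, goat brain C, goat muscle B or goat muscle C, with differences from 0.68 to 1.09. It was also lost with the library letter added to the fit as a block (1.10, edgeR BH adjusted p = 0.0632). In sheep the difference was 0.28 ± 0.44 (edgeR BH adjusted p = 0.628) and without sheep brain C it was 0.63 ± 0.14 (edgeR BH adjusted p = 0.00563), below the log2 limit. Over the 3 species it was 0.82 ± 0.23 (edgeR BH adjusted p = 0.00416), also below the limit, and 1.79 when scaled by library totals alone. Cattle brain exceeded sheep brain by 1.07 ± 0.37 (edgeR BH adjusted p = 0.0398), a call that was lost without sheep brain C (0.80, edgeR BH adjusted p = 0.0737) and without any 1 of the cattle brain libraries, goat brain A, sheep muscle A or sheep muscle C. Sheep minus goat was -0.92 ± 0.37 (edgeR BH adjusted p = 0.0908) and -1.19 without sheep brain A (edgeR BH adjusted p = 0.0497, called).

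CLCN1 held the largest share of the summed level of CLCN1 to CLCN4 in muscle but not in brain. Other CLC genes were left out of that sum. Of the summed level of CLCN1 to CLCN4, CLCN3 and CLCN4 made up 45.6 ± 1.68% and 41.1 ± 0.73% (SD, n = 3) in cattle brain, and CLCN1 0.0943 ± 0.0031%. In goat brain their shares were 54.1 ± 2.01% and 34.7 ± 4.72%, and that of CLCN1 was 1.23 ± 0.54%. In sheep brain A and B the exchangers held 60.9% (CLCN3, both libraries) and 23.3% and 22.4% (CLCN4), and CLCN1 held 7.50% and 7.65%. In sheep brain C, CLCN2 held 36.1% and CLCN1 17.6%. In muscle CLCN1 held 60.5 ± 3.32% in cattle, 57.7 ± 8.17% in sheep and 64.2 ± 5.92% in goat, while CLCN2 held 3.15 to 6.50% in the muscle libraries. Group means of the summed level of the 4 genes ran from 50.4 ± 8.34 in cattle muscle to 60.5 ± 3.66 CPM per kb in sheep brain (SD, n = 3).

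**Figure D3:**
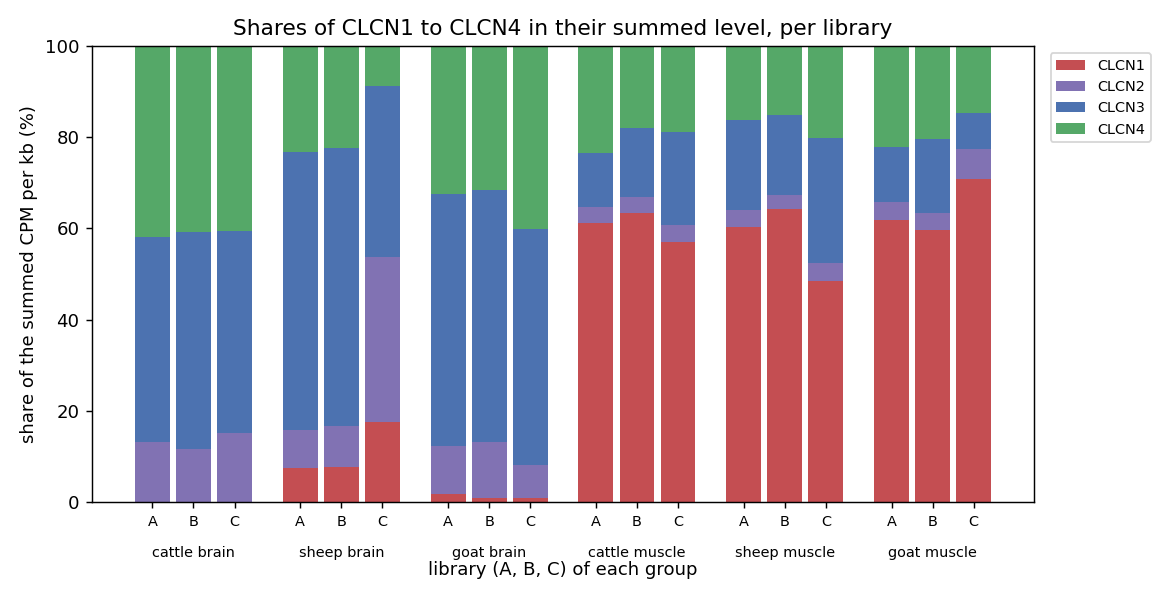
Share of each of CLCN1 to CLCN4 in their summed level (percent of summed CPM per kb) in every library, stacked from 0 to 100. CLCN1 (red) holds 48.5 to 70.9% in muscle and under 18% in every brain library, where CLCN3 (blue) and CLCN4 (green) hold most except in sheep brain C.

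SLC4A10, the sodium-coupled bicarbonate carrier of neurons, was, like SLC12A5, abundant in brain and at or near 0 in muscle. Cattle brain stood at 34.0, 30.3 and 53.9 CPM per kb, sheep brain at 23.4, 24.4 and 1.77, and goat brain at 24.0, 25.3 and 29.9. Muscle held 3, 2 and 4 counts in cattle and 0 in all 6 sheep and goat libraries. Every brain library lay above every muscle library, and cattle brain lay above goat and sheep brain without overlap.

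From the levels, brain stood 1533-fold above muscle in cattle (9 muscle counts), and no less than 1798-fold for sheep or 1742-fold for goat (floor of 3 counts over the muscle group). SLC4A10 was called higher in brain in cattle (10.66 ± 0.40 SE, edgeR BH adjusted p = 1.28e-07), sheep (edgeR BH adjusted p = 0.00460) and goat (edgeR BH adjusted p = 1.52e-06). Cattle minus sheep in brain was 1.25 ± 0.63 (edgeR BH adjusted p = 0.155), and 0.79 ± 0.25 without sheep brain C (edgeR BH adjusted p = 0.0308, below the log2 limit). Cattle minus goat was 0.58 ± 0.63 (edgeR BH adjusted p = 0.544). Cattle brain C, the highest library, also had the highest sum of the 8 matched choroid plexus and ependyma markers among cattle brains, at 17.4 against 12.3 and 12.8 CPM per kb, with KL at 4.90 against 1.09 and 1.16 and 1 marker at 0 in cattle brain A. KL thus made up most of the excess. The list was not particular to brain: its sum in cattle brain was 14.6% of that in cattle muscle. AQP1, 1 of its markers, was called lower in brain over the 3 species, by -6.05 ± 0.38 (SE). The part of choroid plexus and ependyma cells in the SLC4A10 level was not tested.

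SLC4A4, the bicarbonate carrier of astrocytes, was present in both tissues. Cattle brain stood at 28.4, 26.6 and 14.97 CPM per kb against 2.29, 11.7 and 8.32 in muscle. Sheep brain stood at 12.6, 16.7 and 0.249 against 2.21, 1.08 and 3.18, and goat brain at 27.9, 32.7 and 15.5 against 3.05, 3.31 and 2.05. Brain and muscle did not overlap in cattle and goat. In sheep, brain C with 16 counts lay below every muscle library, and A and B lay above them.

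The brain minus muscle difference of SLC4A4 was 1.75 ± 0.52 (SE) in cattle (edgeR BH adjusted p = 0.0137) and 3.22 ± 0.36 in goat (edgeR BH adjusted p = 6.59e-05), both called. In sheep it was 2.21 ± 1.21 (edgeR BH adjusted p = 0.171) and, without sheep brain C, 2.78 ± 0.41 (edgeR BH adjusted p = 0.000872, called). Cattle muscle had the highest mean among muscles, at 7.43 ± 4.75 (SD, n = 3) against 2.80 ± 0.67 in goat and 2.16 ± 1.05 in sheep, with overlapping ranges. Of 8 matched astrocyte markers, 3 were called higher and 2 lower in cattle than in sheep muscle (29.6% of all genes were called). Against goat muscle, 3 were higher and 3 lower in cattle (33.5% of all genes). The summed level of these markers was 1437 to 2373 CPM per kb in cattle muscle, 246 to 533 in sheep muscle and 97.5 to 318 in goat muscle. The list was not particular to brain: its sum in cattle brain was 221% of that in cattle muscle. Over the 3 species, 7 of the 8 markers were called higher in brain. GLUL was not called (0.94 ± 0.42 SE, edgeR BH adjusted p = 0.0514). The part of these markers in the SLC4A4 level was not tested. Cattle minus sheep in muscle was 1.79 ± 0.85 (edgeR BH adjusted p = 0.116) and cattle minus goat 1.41 ± 0.84 (edgeR BH adjusted p = 0.196). Both were called without sheep brain C, at 1.85 (edgeR BH adjusted p = 0.00553) and 1.39 (edgeR BH adjusted p = 0.0222). Because the sheep model is short, the length correction matters for this gene: sheep minus goat in brain was -1.37 ± 0.83 with it (edgeR BH adjusted p = 0.264) and -3.43 without it (edgeR BH adjusted p = 0.0139).

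In each species, brain library C held less SLC4A4 relative to SLC4A10 than A and B did. SLC4A10 made up 54.5, 53.2 and 78.3% of the summed level of the pair in cattle brain A, B and C, and 46.3, 43.6 and 65.9% in goat brain. In sheep brain it made up 65.1, 59.5 and 87.7%. In brain the 8 astrocyte markers summed to 4130, 4505 and 3058 CPM per kb in cattle brain, 4355, 5328 and 3651 in sheep brain and 2959, 1920 and 3919 in goat brain. They were thus lowest in C in cattle and sheep and highest in C in goat, and their part in the SLC4A4 level was not tested.

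Counted together, more of the 8 genes were called higher than lower in brain in each species, and the 1 called lower was CLCN1. SLC12A2 was called in no species, and CLCN4 and SLC4A4 were not called in sheep. In cattle 6 of 8 were called higher (33.9% of the 16428 genes tested were) and 1 lower (25.3% of all were). In sheep 4 were called higher (28.5% of 15616) and 1 lower (19.2%), and in goat 6 higher (31.4% of 15825) and 1 lower (23.2%). Over the 3 species, with species as a term, 5 were higher (31% of 12320) and CLCN1 was lower (23.3%), by -5.43 ± 0.83 SE (edgeR BH adjusted p = 1.01e-05). The median log2 difference of all genes tested was 0.06 in that fit. The 5 were SLC12A5, SLC4A10, SLC4A4 (2.34 ± 0.51, edgeR BH adjusted p = 0.000470), CLCN2 (1.91 ± 0.26, edgeR BH adjusted p = 2.90e-06) and CLCN3 (1.84 ± 0.21, edgeR BH adjusted p = 2.03e-07). Without sheep brain C the sheep count was 5 higher, through SLC4A4, and it was 2 without sheep muscle B. Of all genes called, 57.3% in cattle, 59.8% in sheep, 57.5% in goat and 57.1% over the 3 species were higher in brain, and with library totals alone 75.9, 83.4, 77.8 and 83.8%.

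**Figure D4:**
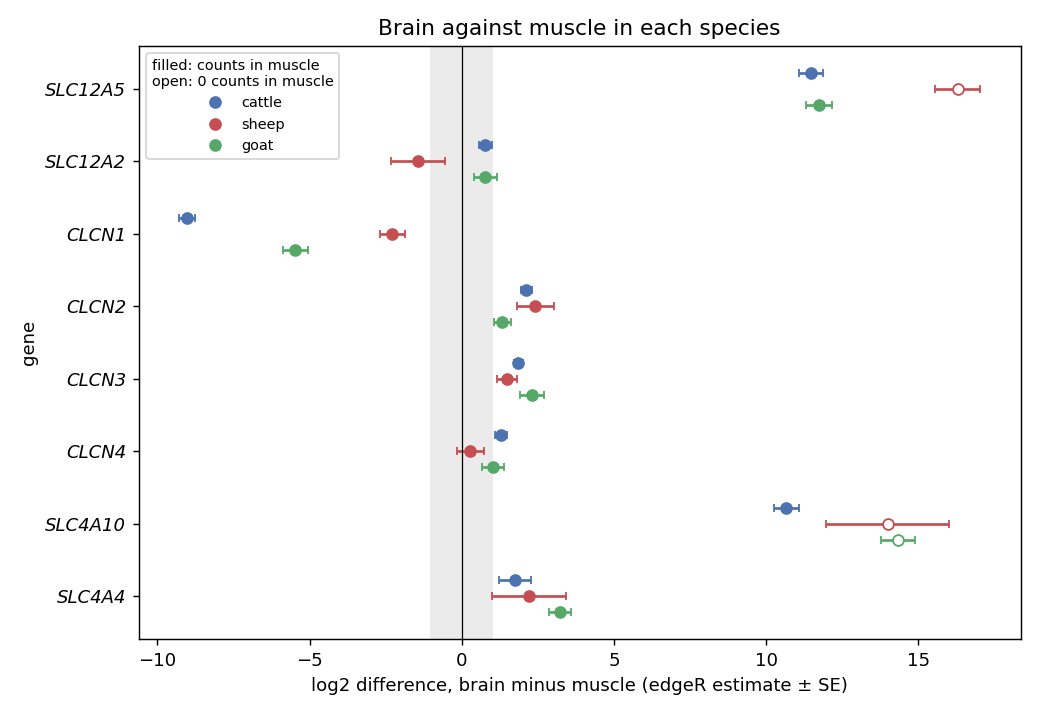
Brain minus muscle log2 difference of each gene in each species (edgeR estimate, bar = SE, grey band = size below 1). Open points have 0 counts in muscle, so their position depends on the fit and gives no size. CLCN1 stands at -9.02, -2.28 and -5.46 for cattle, sheep and goat, and SLC12A2 lies below 0 in sheep only.

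Between species, 0 to 2 of the 8 genes were called in each comparison, set here beside the share of all genes called. In brain they were CLCN1 and CLCN4 for cattle against sheep (25.9% of all genes were called) and CLCN1 alone for cattle against goat (23.1%) and for sheep against goat (18.4%). In muscle they were SLC12A5 and SLC12A2 for cattle against sheep (29.6%), none for cattle against goat (33.5%) and SLC12A5 for sheep against goat (23.2%). The SLC12A5 calls in muscle rest on 19 counts in cattle and 4 in goat against 0 in sheep. From the levels, with a floor of 3 counts over sheep muscle, cattle stood at least 4.90-fold above sheep. The same floor gave 2.44-fold for goat, and 1.89-fold without goat muscle A. It leaves out the error of the 4 goat counts, so the goat value is no firm bound. Without cattle muscle C, which holds 11 of the 19 counts, the cattle bound was 3.06-fold. The tissue difference was called to differ for SLC12A5 and CLCN1 between cattle and sheep (20.1% of all genes), and for CLCN1 alone in cattle against goat (13.4%) and in sheep against goat (7.13%). For cattle against goat muscle, 0 of the 8 had an unadjusted edgeR p below 0.05, the lowest BH adjusted p was 0.140 (SLC12A2), and DESeq2 called 0. The 3 brain comparisons share libraries with one another, as do the 3 muscle comparisons.

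Sheep brain C decided much of what could be called for these genes, and its departures differed widely among them. Relative to the mean of A and B, it held 3.85 times the CLCN2 level and 2.15 times the CLCN1 level. It held less of the other 6: the mean of A and B was 1.59 times the C level for SLC12A5, 1.76 times for CLCN3, 2.80 times for CLCN4, 13.5 times for SLC4A10, 14.4 times for SLC12A2 and 58.6 times for SLC4A4. Summed neuron markers did not stand apart there, at 4206 against 4151 and 3378 CPM per kb.

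Over all genes, library C departed with genomic span. Its median log2 difference from A and B was 0.76 for 4314 genes spanning under 20 kb, -0.24 for 2643 genes from 20 to 50 kb, -0.89 for 1644 genes from 50 to 100 kb, -1.03 for 1084 genes from 100 to 200 kb and -1.24 for 842 longer genes. The 8 genes span 14.1 kb (CLCN2) to 476 kb (SLC4A4) in sheep, and CLCN2, the shortest, had the highest ratio and SLC4A4, the longest, the lowest. The genes between them did not follow the order of span: SLC12A5 (36.1 kb) lay below the longer CLCN1 (38.5 kb), and CLCN4 (69.2 kb) and SLC12A2 (91.6 kb) lay below the longer CLCN3 (102 kb). In the other brain libraries outside sheep, the class medians stayed between -0.18 and 0.07. Goat muscle C had the same direction at a smaller size, from 0.26 under 20 kb to -0.38 for 100 to 200 kb, and among the genes it held 0.354 times the A and B level of CLCN3 and 0.429 times that of CLCN4, but 1.17 times that of SLC12A2, which spans 95.8 kb in goat. The origin of these differences was not tested.

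**Figure D5:**
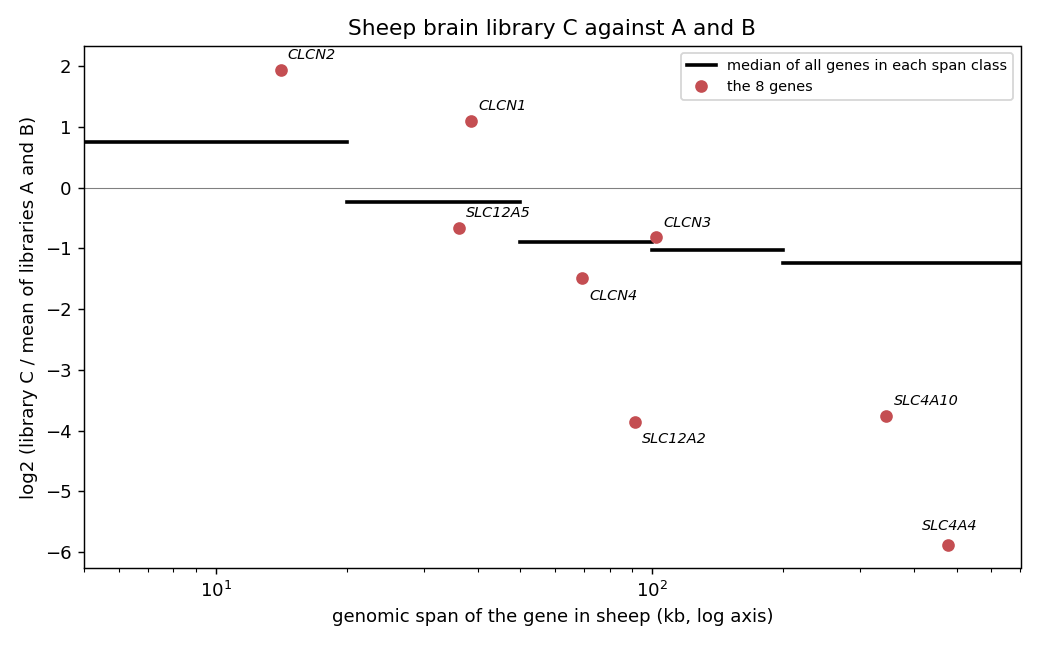
Sheep brain library C against the mean of A and B (log2 of the ratio of levels) for the 8 genes (points), by genomic span in sheep (kb, log axis), with the median of all genes in 5 span classes (black lines; for these, 0.1 was added to levels before the log). CLCN2 lies at 1.94 and CLCN1 at 1.10, above their classes, and SLC12A2, SLC4A10 and SLC4A4 at -3.85, -3.76 and -5.87, below theirs.

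The other carriers and regulators of the same pathways are given for the fit over the 3 species, from lists drawn up with earlier results of these data known. Of all 12320 genes in that fit, 31% were called higher and 23.3% lower in brain, and the list counts below are to be read against these shares. Of 6 other cation-chloride carriers tested, 3 were higher in brain and 0 lower, with a median log2 difference of 1.55 against 0.06 for all genes. Among the called ones were SLC12A8 (4.06 ± 0.50 SE) and SLC12A9 (1.27 ± 0.34), with edgeR BH adjusted p of 7.59e-07 and 0.00248. Without sheep brain C, SLC12A9 was at 0.97, below the log2 limit. SLC12A4, the widely expressed KCC1, was at -0.53 ± 0.16, below the log2 limit. Of 10 kinases and adaptors that regulate these carriers, 5 were higher in brain and 3 lower (median 1.06). WNK3 and WNK4, kinases at the top of the cascade, were higher by 5.52 ± 0.50 and 2.44 ± 0.27, and STK39 (SPAK), which phosphorylates the carriers, by 3.72 ± 0.46. CAB39, the scaffold that activates it, was lower by -1.47 ± 0.28, as was the ubiquitin ligase subunit CUL3 by -1.34 ± 0.18, whereas its adaptor KLHL2 was higher by 2.45 ± 0.22. The calls of CAB39 and CUL3 were lost with library totals alone, at -0.46 for CAB39 and -0.34 for CUL3 (edgeR BH adjusted p = 0.164 and 0.119). The rest of the list was mixed. CAB39L was called higher by 2.15 ± 0.29 and OXSR1 lower by -1.39 ± 0.33. WNK1 (-0.03 ± 0.29) and WNK2 (-0.56 ± 0.18) were not called.

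Of 9 other CLC genes and subunits tested, 5 were higher in brain and 1 lower (median 1.504). HEPACAM and MLC1, which partner CLCN2 in astrocytes, were higher by 8.31 ± 0.39 (SE) and 9.65 ± 0.79, with edgeR BH adjusted p of 7.31e-13 and 2.58e-09; MLC1 had 0 counts in sheep muscle. In sheep brain C, where CLCN2 stood highest, HEPACAM was lowest of the sheep brains (51.5 against 77.1 and 90.5 CPM per kb) and MLC1 too (185 against 208 and 233). The exchanger CLCN6 was higher by 1.504 ± 0.24 and CLCN5 lower by -1.26 ± 0.41, a call lost with library totals alone (-0.28, edgeR BH adjusted p = 0.551). TMEM9, a partner of the endosomal exchangers, was higher by 1.58 ± 0.22.

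Of 13 other bicarbonate carriers and regulators tested, 6 were higher in brain and 2 lower (median 1.43). SLC4A8 and SLC4A3, a sodium-driven and a sodium-independent exchanger of neurons, were higher by 5.10 ± 0.58 (SE) and 4.72 ± 0.29, and SLC26A4 by 5.77 ± 0.64 at levels below 1.1 CPM per kb in brain. SLC26A7 and SLC26A3 were lower by -3.07 ± 0.40 and -1.997 ± 0.37. SLC4A5, another sodium bicarbonate carrier, stood in brain at 1.05 ± 0.31 CPM per kb in cattle (SD, n = 3) against 0.115 ± 0.062 in sheep and 0.112 ± 0.031 in goat, and was called higher in cattle than in either (3.19 ± 0.51 and 3.22 ± 0.52 SE, edgeR BH adjusted p = 0.000289 and 0.000223).

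Active carbonic anhydrases make bicarbonate from carbon dioxide. Of 15 listed carbonic anhydrases 9 were tested, CA2 and CA3 not among them, and 7 were higher in brain and 1 lower. Of 20 other anion channels tested, 8 were higher and 5 lower, near the shares of all genes. The median log2 differences were 5.25 for the carbonic anhydrases and 0.06 for the channels. CA10 (an inactive relative; 9.58 ± 0.47 SE), CA8 (also inactive; 6.08 ± 0.42) and the mitochondrial CA5B (3.94 ± 0.29) were higher in brain. The membrane-bound CA14 was lower by -5.71 ± 0.35, at 46.0 to 272 CPM per kb in muscle. Among the channels, TTYH1 (6.08 ± 0.34) and ANO4 (9.97 ± 0.57) were higher in brain, and CLIC5 (-5.63 ± 0.44), BEST3 (-7.61 ± 0.72) and ANO5 (-2.79 ± 0.27), the last a gene of muscular dystrophy, were lower.

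For each of the 8 genes, the matched genes whose log2 levels followed it most closely over the 18 libraries were listed as a description. For SLC12A5 they were SLC17A7, a vesicular glutamate transporter, and MPPED1 (Pearson r = 0.999 each). For SLC4A10 the sodium channel SCN2A was among them (r = 0.998). The points of these correlations share the gap between the tissues and come from the same libraries. CLCN1, which also had a wide gap between the tissues, was followed most closely by NFKB1 and ABCA6 (r = 0.971 and 0.964). For the genes with smaller gaps the closest were G6PC3 and CARMIL3 for CLCN2 (r = 0.970 and 0.962) and HYOU1 and ATP6AP1, a proton pump subunit, for CLCN3 (0.964 and 0.963). They were SESN3 and HS2ST1 for CLCN4 (0.947 and 0.946), CANX and KIAA0513 for SLC4A4 (0.931 and 0.925) and APPBP2 for SLC12A2 (0.936).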

How the data were processed

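The authors deposited raw read counts per gene and library, made with Trimmomatic 0.39, STAR 2.7.6 and featureCounts (no version named), with ARS-UCD1.2 as the named build, per the submitters' processing notes. For sheep and goat the build is not given in the sources used here, nor are strandedness and multi-mapping. Per the labels, RNA from frozen tissue was oligo(dT)-selected and copied with random hexamers.

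Cattle genes were named where they overlapped a RefSeq gene (ARS-UCD2.0 table) by at least 0.5 of their union (16905 genes), since 0 identifiers matched. Sheep and goat genes were paired where at least 2 pairs of neighbouring exons had equal lengths, or by gene order with at least 1 shared exon length. Of 13430 matched genes 9500 came from the first step, and 7 of the 8 genes did so in every species (SLC4A4 in sheep did not).

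The tests were edgeR's (4.0.16, in R 4.3.3): filterByExpr, TMM scaling and a robust quasi-likelihood fit. Each species was fitted alone for brain against muscle, and all 18 libraries were fitted together, with exonic length as an offset, for the other comparisons, each gene called at a BH adjusted p below 0.05 and a log2 difference of at least 1. The method was also run on simulated counts with known changes, and the outcome is not reported here. Alternatives were another scaling (RLE), library totals, no filter, DESeq2 1.42.0, no length offset, first-step matches, a replicate block and leaving out each library. All 8 genes passed the filter in each fit. Totals ran from 20730803 to 58514630 counts, and depth limits the values near 0. Counting error was not compared with the spread between libraries. The 8 genes and the lists were chosen with earlier results of these data known; named genes are all 8, up to 4 per list of lowest adjusted p and up to 2 against the list's median, and up to 3 per list in species comparisons, of which the text gives some; a few genes that met the rule are not reported here. Some further list genes and markers are named to show the spread within a list. No sequence is printed, since no file used here holds one.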

Additional observations from a re-analysis of the deposited data

Results flagged for a closer look

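The brain minus muscle difference of CLCN1 differed between the species in each of the 3 interaction tests, by -6.85 (cattle minus sheep), -3.62 (cattle minus goat) and 3.22 (sheep minus goat) on the log2 scale, with edgeR BH adjusted p of 1.68e-06, 0.000581 and 0.00143. The muscle ranges overlapped and the brain ranges did not, with sheep brain highest and cattle brain lowest in 3 of 3 libraries each.

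The tissue difference of SLC12A5 also differed between cattle and sheep, at -5.04 ± 1.198 SE (edgeR BH adjusted p = 0.00924). That value rests on 19 counts in cattle muscle against 0 in sheep muscle, so its size depends on the fit and is no bound.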

How the results depend on the processing

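CLCN1 kept its calls in every tissue, brain and interaction comparison under the alternatives run, apart from DESeq2 in the fit over 3 species, which gave it no adjusted p, so that count was not made there. The count for cattle against sheep brain was 1 with library totals alone and 1 without the length offset, against 2. Without the length offset, 3 genes were called for cattle against goat brain (against 1), 1 for cattle against goat muscle (against 0), 2 for sheep against goat brain (against 1) and 2 for sheep against goat muscle (against 1). Leaving out each library in turn gave 2 to 5 genes higher in sheep brain, 1 to 2 for cattle against sheep brain, 2 to 4 in muscle and 2 to 4 for the tissue difference of that pair, 1 to 2 for cattle against goat brain and 0 to 3 in muscle, and 1 to 3 for sheep against goat brain and 0 to 2 in muscle (0 without any 1 of the sheep muscle libraries or goat muscle A). The values of 4 and of 5, the 3 in cattle against goat muscle and the 2 in cattle against goat brain came without sheep brain C, and the 3 in sheep against goat brain without sheep brain A. The calls added without sheep brain C for SLC4A10 in muscle rest on 9 counts.

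The log2 ratio of SLC12A5 to SLC12A2 for cattle against sheep ran from -0.46 to 1.195 when a brain library was left out, and was below 0 without cattle brain B (-0.02), sheep brain A (-0.34) and sheep brain B (-0.46). For cattle against goat it was 3.16 from counts without length correction, against 1.77. The length correction also turned TMEM9B (-0.42 without it for cattle against goat muscle, -0.82 for sheep against goat brain) and ANO10 (-0.080 for cattle against goat muscle). For no length offset the cause is the alternative itself; the other causes were not tested.

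Whether brain and muscle libraries with the same letter came from the same animal is not stated. Their deviations correlated at -0.23 to 0.20, which cannot decide it, since a shared animal need not shift both tissues alike. With the letter as a replicate block, 5 genes were higher in goat brain, against 6 (CLCN4 was not called), and 3 differed in the tissue difference of cattle and sheep, against 2 (SLC12A2 was called). Over all genes the block gave 999 calls against 1650 for the tissue difference of cattle and goat and 322 against 878 for sheep and goat. For the latter DESeq2 gave 1684, first-step matches 541, and leaving out goat brain A 466, goat brain C 516 and sheep muscle A, B or C 467, 472 or 470. First-step matches, which leave 9052 genes to test, gave 1772 calls against 2845 for cattle against goat brain and 1794 against 2855 for sheep against goat muscle. Without sheep brain C the tissue difference of cattle and goat had 2734 calls. Library totals alone moved the share of calls that were higher from 48.9 to 35.7% (cattle against goat muscle), 54.96 to 37.2% (sheep against goat muscle), 51.6 to 65.8% and 60.4 to 74.6% (tissue difference, cattle and sheep against goat). Without the length offset the share was 55.3% against 71.0% for sheep against goat brain. Near 0 counts, depth limits SLC12A5 and SLC4A10 in muscle.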
